A study of Rattus norvegicus with 12 samples.

Results

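Blood cells release small RNA into serum, and 6 mature miRNAs that are enriched in white blood cells were followed here in exosome libraries from rat serum. They were chosen by name as leukocyte miRNAs: rno-miR-223-3p for myeloid cells, rno-miR-150-5p, rno-miR-342-3p and rno-miR-181a-5p for lymphoid cells, and both arms of the miR-142 hairpin, rno-miR-142-3p and rno-miR-142-5p, for all of them. The rat prefix rno is left out from here on. All 6 were listed in both deposited count tables, among 436 mature miRNAs in all (411 in the table of the EGME and water libraries, 343 in the table of the CBZ and oil libraries). Each of 4 groups had 3 libraries. All were made from male Sprague-Dawley rats, 9 weeks old at dosing, whose blood was drawn 24 h after a single oral dose. The EGME group received ethylene glycol monomethyl ether at 2000 mg/kg in water (10 mL/kg), and the water group received that vehicle. The CBZ group received the compound that the labels name only as CBZ, at a dose of 400 mg/kg, with corn oil as the vehicle (5 mL/kg), and the oil group received corn oil. The series looks for small RNAs in serum exosomes that mark injury of the testis. EGME is a glycol ether solvent known to harm the testis and also blood-forming and lymphoid tissue. Blood was left to clot overnight in the cold before serum was taken, and the vesicle pellet was not sorted by cell of origin. Nothing in the titles ties a library to a rat of its own, and the p-values rest on the spread of these libraries, which may be partly technical.

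A miRNA guides the silencing machinery to messenger RNAs that pair with its seed, bases 2 to 8 from the 5′ end. Granulocytes and monocytes are rich in miR-223, which restrains their activation, and platelets carry it too. Mature lymphocytes are rich in miR-150, which lowers the transcription factor MYB. The miR-142 hairpin is made in blood cells of nearly every lineage and yields a stable miRNA from each arm. In developing T cells miR-181a sets the sensitivity of the antigen receptor, but it is also made in other tissues, brain among them. Lymphocytes carry miR-342-3p, whose gene lies within the gene Evl. Other rat miRNA genes overlap longer genes in RefSeq as well: Mir142 overlaps Tspoap1, and one of the miR-181a genes overlaps Nr6a1.

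The mature sequences are shown because the seeds tell the members apart. Those of 5 of the 6 members were found in RefSeq (build GRCr8), are 21 to 23 bases long and are printed with the seed in capitals. The last line gives the other arm of miR-223, which is set against miR-223-3p further on.
miR-223-3p (Mir223, chrX:65151450-65151470, plus strand): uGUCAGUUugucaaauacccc
miR-142-3p (Mir142, chr10:73055155-73055177, plus strand): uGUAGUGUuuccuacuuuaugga
miR-142-5p (Mir142, chr10:73055119-73055139, plus strand): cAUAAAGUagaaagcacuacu
miR-342-3p (Mir342, chr6:133329715-133329737, plus strand): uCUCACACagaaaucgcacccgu
miR-181a-5p (Mir181a2, chr3:43025601-43025623, and Mir181a-1, chr13:52037081-52037103, both plus strand): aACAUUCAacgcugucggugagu
miR-223-5p (Mir223, chrX:65151408-65151430, plus strand): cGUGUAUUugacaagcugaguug
No 2 of these 6 lines share a seed. The seed of miR-181a-5p is shared by 4 mature rat miRNAs of that table, miR-181a-5p, miR-181b-5p, miR-181c-5p and miR-181d-5p. Aligned from the 5′ end, miR-181b-5p has the same base as miR-181a-5p at 20 of 23 positions, so short reads could be split between them. Since 2 genes give the same miR-181a-5p, its counts cannot be assigned to either.

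Levels are given as CPM, the counts of a miRNA after scaling the mature miRNA counts of each library to 1000000, that is, as shares of its miRNA reads. Such a share cannot tell fewer vesicles of a cell type from less of the miRNA per vesicle, or from a change in other miRNAs. The mature miRNA counts were 159993 to 244141 per EGME library and 155085 to 228943 per water library, and 71240 to 101206 per CBZ library and 51953 to 132148 per oil library. A count of 0 would allow up to 3 counts, which is 12.3 to 57.7 CPM depending on the library. No member was at 0 in any library, and the lowest count was 4, of miR-342-3p in oil library 2. The 6 members together made up 0.466% ± 0.0683 of the miRNA counts with EGME and 0.684% ± 0.0285 with water, and 0.620% ± 0.0926 with CBZ and 0.699% ± 0.193 with oil (SD, n = 3 libraries per group). They were therefore a small part of the miRNA in every group. Red blood cell miRNAs were far more abundant, with 7 listed miRNAs at 6.37% to 12.1% of the miRNA counts in the 12 libraries.

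Within the set, miR-223-3p and miR-150-5p had the highest means in the EGME, water and oil groups. With oil the place of miR-150-5p rested on library 1 (2716 CPM). In oil library 3 it had 931 CPM, below miR-181a-5p with 938 CPM. By mean CPM miR-223-3p ranked 42nd among the listed miRNAs in the EGME group and 42nd in the water group, and 47th with CBZ and 32nd with oil. The order by mean CPM was miR-223-3p, miR-150-5p, miR-181a-5p, miR-142-3p, miR-142-5p and miR-342-3p with EGME and again with oil. In the water group miR-150-5p (2623 CPM) stood above miR-223-3p (1754 CPM) in every library, followed by miR-181a-5p (951 CPM), miR-142-3p (826 CPM), miR-142-5p (517 CPM) and miR-342-3p (167 CPM). With CBZ miR-150-5p (1647 CPM), miR-181a-5p (1538 CPM) and miR-223-3p (1328 CPM) led, and their libraries overlapped. The ranges of miR-142-3p and miR-142-5p overlapped in each group except water. In every group miR-342-3p was lowest, and its highest library lay below the lowest library of every other member of that group. The mature miRNAs are of nearly equal length, so their CPM can be compared without a correction for it, but ligation favours some sequences over others, which these counts do not correct.

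**Figure D1:**
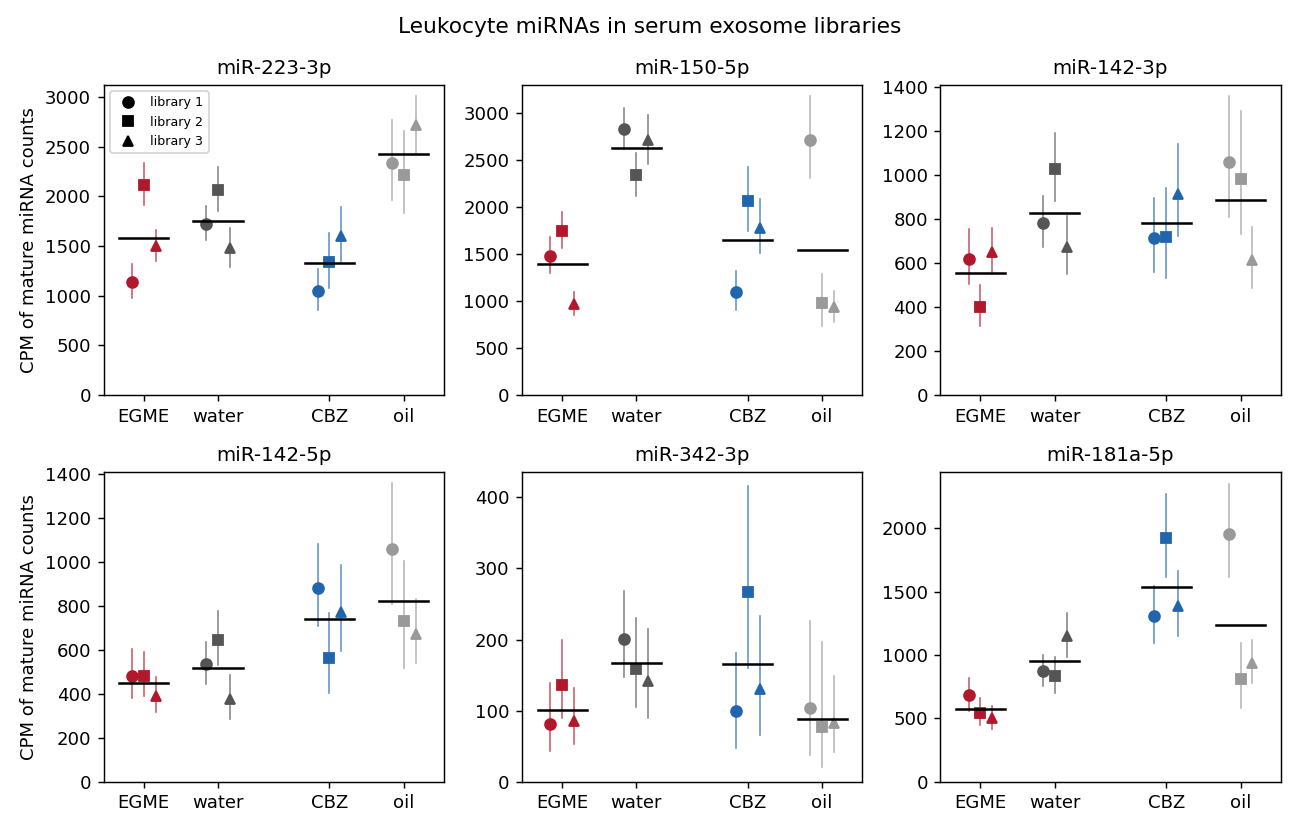
Levels in CPM of mature miRNA counts (vertical axes, linear, from 0) of the 6 leukocyte miRNAs in each library of the EGME, water, CBZ and oil groups; circles, squares and triangles are libraries 1, 2 and 3, thin lines exact 95% binomial intervals (counting error only) and black bars group means. For miR-150-5p the EGME libraries lie at 967 to 1743 CPM, below the water libraries at 2335 to 2826 CPM, and for miR-223-3p the CBZ libraries lie at 1047 to 1602 CPM, below the oil libraries at 2214 to 2717 CPM.

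After EGME the lymphoid miR-150-5p was lower, and it was the 1 member that passed a test, among mature miRNAs alone. The other lymphoid members, miR-181a-5p and miR-342-3p, lay below the water libraries too but did not pass, and the myeloid miR-223-3p overlapped its vehicle. The lymphoid members were not tested against the myeloid one. The lymphocyte miRNA miR-150-5p had 1481, 1743 and 967 CPM in EGME libraries 1 to 3, against 2826, 2335 and 2708 CPM in water libraries 1 to 3. Every EGME library was thus below every water library, and the ratio of the group means was 0.533. The T-cell regulator miR-181a-5p had 681, 544 and 504 CPM with EGME, against 874, 833 and 1148 CPM with water, again without overlap of the values. The scarce lymphocyte miRNA miR-342-3p had 81.3, 136 and 86.0 CPM with EGME, from 13, 26 and 21 reads, against 201, 158 and 142 CPM with water, from 46, 27 and 22 reads. Its groups did not overlap either. Of the pan-leukocyte pair, miR-142-3p had 619, 398 and 647 CPM with EGME, against 782, 1027 and 671 CPM with water, and these groups did not overlap. For all of these but miR-150-5p the exact 95% intervals (counting error only) of the nearest libraries overlapped. For miR-181a-5p these were EGME library 1 (559 to 822 CPM) and water library 2 (702 to 982 CPM), for miR-342-3p EGME library 2 (88.9 to 199 CPM) and water library 3 (88.9 to 215 CPM), and for miR-142-3p EGME library 3 (550 to 756 CPM) and water library 3 (548 to 812 CPM). Its sister arm miR-142-5p had 481, 482 and 389 CPM with EGME, against 533, 645 and 374 CPM with water, and the groups overlapped. The myeloid miR-223-3p had 1138, 2115 and 1495 CPM with EGME, against 1721, 2065 and 1477 CPM with water. Its EGME libraries thus spanned the whole range of the water libraries. In all, 4 of 6 members lay lower in every EGME library than in every water library, where 14.2% of the 141 mature miRNAs tested did so, and 0 of 6 lay higher in every EGME library, where 9.93% did.

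With edgeR's quasi-likelihood test over all RNA classes, 0 of 6 members passed an adjusted p of 0.05 for EGME, and 0 of 6 had an unadjusted p under 0.05. In that fit 0% of 330 features passed, with 59 at an unadjusted p under 0.05, and the Wald test of DESeq2 called 20 features and 0 members. The log2 difference of miR-150-5p was -0.67 (SE 0.366, edgeR adjusted p = 0.319). When mature miRNAs were fitted alone, so that scaling and spread came from miRNAs only, 1 of 6 members passed, where 9.22% of 141 miRNAs did. This was miR-150-5p, with a log2 difference of -0.86 (SE 0.261) and an edgeR adjusted p of 0.0229. The same fit gave miR-181a-5p a log2 difference of -0.66 (SE 0.260, adjusted p = 0.0882), miR-342-3p -0.68 (SE 0.425, adjusted p = 0.334) and miR-142-3p -0.52 (SE 0.261, adjusted p = 0.208). For miR-142-5p it was -0.16 (adjusted p = 0.762) and for miR-223-3p -0.09 (adjusted p = 0.843), and both values were above 0 over all classes, at 0.04 for miR-142-5p and 0.10 for miR-223-3p. The median over the 6 members was -0.59, against -0.08 over all 141 miRNAs. The values of miR-150-5p, miR-181a-5p and miR-342-3p were below 0 in 29 of 29 ways of processing, that of miR-142-3p in 28. The call of miR-150-5p among miRNAs was lost with DESeq2 size factors (edgeR adjusted p = 0.0572), without water library 1 (0.104), without EGME library 1 (0.145) and without EGME library 3 (0.327).

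After CBZ the myeloid miR-223-3p was lower, while the libraries of the lymphoid members and of miR-142 overlapped those of the oil group. In CBZ libraries 1 to 3 miR-223-3p had 1047, 1333 and 1602 CPM, against 2336, 2214 and 2717 CPM in oil libraries 1 to 3. The groups did not overlap, and the ratio of their means was 0.548, although the exact 95% intervals of CBZ library 3 (1343 to 1895 CPM) and oil library 2 (1828 to 2656 CPM) did. It was the only 1 of the 6 members to lie lower in every CBZ library, where 5.22% of the 115 mature miRNAs tested did so, and 0 of 6 lay higher in every CBZ library, where 17.4% did. The lymphocyte miR-150-5p had 1097, 2063 and 1780 CPM with CBZ, against 2716, 982 and 931 CPM with oil. Oil library 1 thus stood far above the other oil libraries and alone lay above every CBZ library. The same library was high for miR-181a-5p, which had 1304, 1923 and 1388 CPM with CBZ, against 1955, 808 and 938 CPM with oil. This was not peculiar to lymphoid miRNAs. Oil library 1 had 103110 CPM of the red blood cell miRNA miR-486, against 58264 and 57655 CPM in oil libraries 2 and 3. For miR-16-5p it had 882 CPM, against 269 and 272 CPM. For miR-151-3p it was the lowest, with 4118 CPM, against 9990 and 6084 CPM. For miR-142-3p the values were 711, 716 and 913 CPM with CBZ, against 1055, 982 and 613 CPM with oil. For miR-142-5p they were 879, 561 and 771 CPM with CBZ, against 1055, 731 and 673 CPM with oil. Both arms overlapped between the groups. Only 10, 19 and 11 reads of miR-342-3p were counted with CBZ (98.8, 267 and 130 CPM), against 6, 4 and 11 reads with oil (104, 77.0 and 83.2 CPM). It was therefore under the count filter in the fit of CBZ against oil, and without the filter its log2 difference was 0.67 (SE 0.635, edgeR adjusted p = 0.576).

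Over all RNA classes edgeR called 0 of the 5 members tested, and miR-223-3p was the 1 member whose unadjusted p was under 0.05. In that fit 0% of 244 features passed, with 64 at an unadjusted p under 0.05, while the Wald test of DESeq2 called 24 features and 1 member, again miR-223-3p. Its log2 difference was -1.13 (SE 0.295, edgeR adjusted p = 0.133) over all classes. Among mature miRNAs alone it fell, with a log2 difference of -1.18 (SE 0.257, edgeR adjusted p = 0.00168), the 1 call among 5 members tested, where 11.3% of 115 miRNAs passed. The other members differed by -0.41 (miR-142-3p, SE 0.275), -0.37 (miR-142-5p, SE 0.273), -0.06 (miR-150-5p, SE 0.275) and 0.13 (miR-181a-5p, SE 0.263), with edgeR adjusted p from 0.359 to 0.877. The call of miR-223-3p among miRNAs was lost without scaling (-0.87, adjusted p = 0.110), without CBZ library 1 (-1.06, adjusted p = 0.0796) and without CBZ library 2 (-1.22, adjusted p = 0.113). In the last 2 of these fits 0 of 113 and 0 of 121 miRNAs passed. The value of miR-223-3p was below 0 in 29 of 29 ways of processing. The TMM factors of the miRNA fit were 1.06 to 1.13 in the CBZ libraries, against 1.25, 0.739 and 0.813 in oil libraries 1 to 3. Without oil library 1, the one high for miR-150-5p, miR-181a-5p and some miRNAs of other cells, miR-223-3p was at -1.47 (SE 0.247, edgeR adjusted p = 0.000897) among miRNAs alone.

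**Figure D2:**
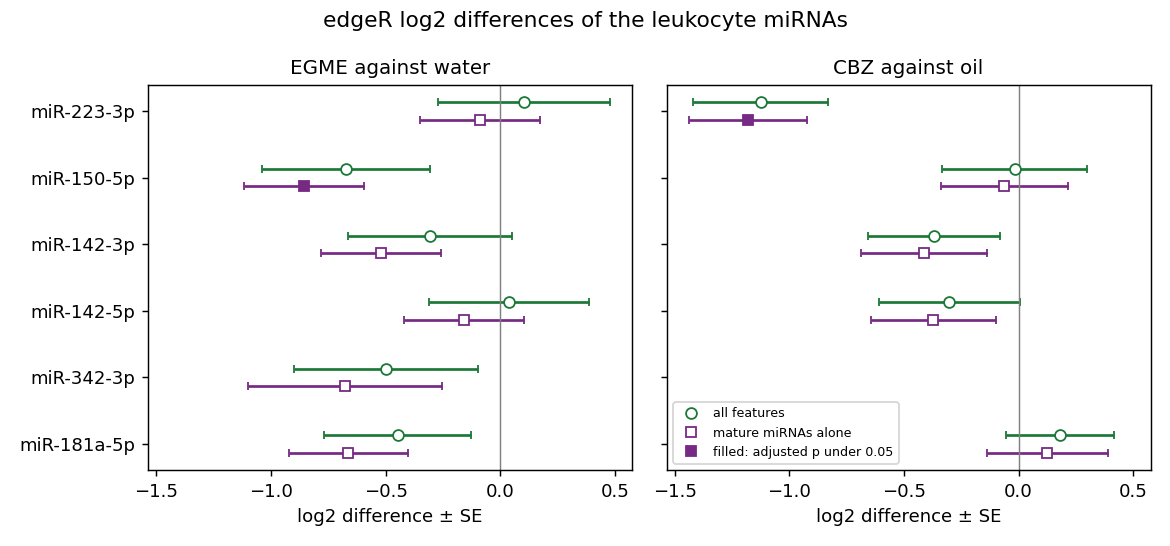
Log2 differences with SE (horizontal axis) of the 6 members for EGME against water and for CBZ against oil, from edgeR over all features (circles) and over mature miRNAs alone (squares), filled where the adjusted p was under 0.05; miR-342-3p was under the count filter for CBZ. The 2 filled marks are miR-150-5p for EGME (-0.86) and miR-223-3p for CBZ (-1.18).

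Whether the toxicants differed in their effect was tested as the EGME difference minus the CBZ difference over all 12 libraries. No member passed in edgeR (0 of 6, with 1 at an unadjusted p under 0.05), where 0% of 327 features passed, with 81 at an unadjusted p under 0.05. The Wald test of DESeq2 called 32 features and 0 members. For miR-223-3p the difference of effects was 1.28 (SE 0.519, edgeR adjusted p = 0.165), and for miR-150-5p it was -0.63 (SE 0.522, adjusted p = 0.501). Among mature miRNAs alone 0% of 146 passed, 0 of 6 members included, with 16 at an unadjusted p under 0.05, 2 of them members, and the Wald test called 1 miRNA and 0 members. There miR-223-3p was at 1.08 (SE 0.404, edgeR adjusted p = 0.271), miR-150-5p at -0.81 (SE 0.429, adjusted p = 0.437), miR-181a-5p at -0.81 (SE 0.362, adjusted p = 0.366) and miR-342-3p at -1.27 (SE 0.655, adjusted p = 0.423). Without oil library 1 the difference of miR-223-3p passed, at 1.67 over all classes (adjusted p = 0.0418) and 1.32 among miRNAs (adjusted p = 0.0419). In these fits 57 of 359 features and 7 of 151 miRNAs passed. A fall of miR-150-5p peculiar to EGME, or of miR-223-3p peculiar to CBZ, is thus not shown by these 12 libraries.

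**Figure D3:**
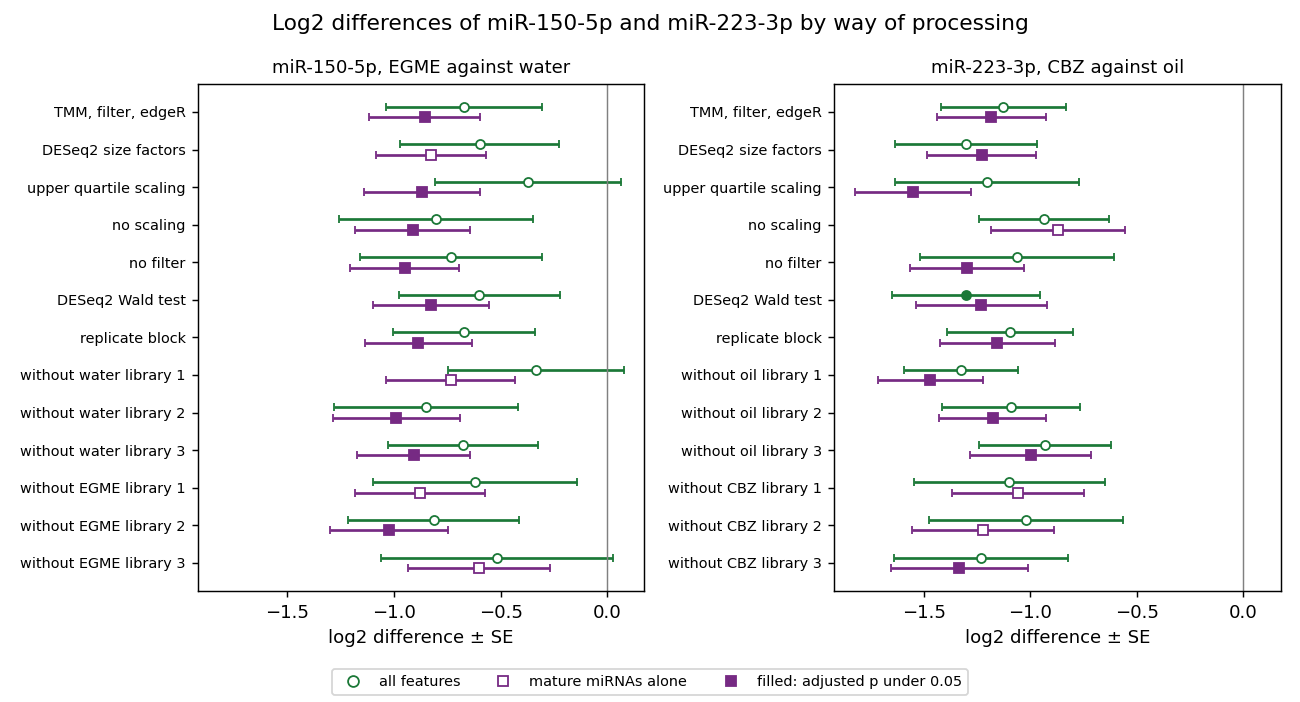
Log2 differences with SE of miR-150-5p for EGME against water and of miR-223-3p for CBZ against oil under 13 ways of processing each, over all features (circles) and over mature miRNAs alone (squares), filled where the adjusted p was under 0.05. All marks lie below 0, from -1.02 to -0.33 for miR-150-5p and from -1.55 to -0.87 for miR-223-3p, and the filled marks are squares except for 1 circle, miR-223-3p with the Wald test of DESeq2.

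A ratio of reads within a library does not depend on how libraries are scaled. The ratio of the myeloid miR-223-3p to the lymphoid miR-150-5p was 0.768, 1.21 and 1.55 in EGME libraries 1 to 3, against 0.609, 0.884 and 0.545 in water libraries 1 to 3. In the other pair of groups it was 0.955, 0.646 and 0.90 with CBZ, against 0.860, 2.25 and 2.92 with oil. The mean ratio was 1.18 ± 0.391 with EGME and 0.680 ± 0.180 with water, and 0.834 ± 0.165 with CBZ and 2.01 ± 1.05 with oil (SD, n = 3 libraries per group). In both pairs the groups overlapped, through EGME library 1 and through oil library 1.

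The arms of the miR-223 hairpin stood nearer to each other in reads with CBZ than with oil. The ratio of miR-223-3p to miR-223-5p was 1.51, 1.70 and 2.21 in CBZ libraries 1 to 3, against 3.86, 3.19 and 4.54 in oil libraries 1 to 3, and the groups did not overlap. By level, miR-223-5p had 692, 786 and 724 CPM with CBZ, against 606, 693 and 598 CPM with oil, while the 3p arm was at 0.548 of its oil mean. The log2 difference of miR-223-5p was -0.08 among mature miRNAs alone (SE 0.284, edgeR adjusted p = 0.847), from -0.46 with upper quartile scaling to 0.22 without scaling, next to -1.18 for the 3p arm. The ratio of the arms was singled out after its values were seen and was not tested. It was not the only ratio without overlap between CBZ and oil. That of miR-223-3p to miR-142-3p was 1.47, 1.86 and 1.75 with CBZ, against 2.21, 2.25 and 4.43 with oil. With EGME the ratio of the miR-223 arms was 2.25, 7.09 and 2.20, against 3.31, 5.68 and 4.02 with water. Library 2 was thus highest in both groups, and the groups overlapped. For miR-142 the arms were nearer to each other, with a ratio of 3p to 5p of 1.26 ± 0.419 with EGME and 1.62 ± 0.165 with water, and 1.09 ± 0.247 with CBZ and 1.08 ± 0.228 with oil. The 3p arm of miR-150 was scarce, with 5 to 10 reads per EGME library and 6 to 17 per water library, and 6 to 8 per CBZ library and 1 to 3 per oil library. On these few reads the ratio of miR-150-5p to miR-150-3p was 18.5, 24.5 and 18.75 with CBZ, against 78.5, 51.0 and 41.0 with oil, without overlap. Among miRNAs alone miR-150-3p was under the count filter for EGME and for CBZ. Over the 12 libraries it passed the filter, with means of 64.4 CPM with water and 79.5 with CBZ, against 38.9 with EGME and 25.5 with oil. There its EGME effect minus its CBZ effect was -2.05 (SE 0.814, edgeR adjusted p = 0.279), a value that rests on those few reads.
The hairpin of miR-223 is shown to place its arms, with miR-223-5p and then miR-223-3p in capitals.
Mir223 (GRCr8, chrX:65151383-65151492, plus strand): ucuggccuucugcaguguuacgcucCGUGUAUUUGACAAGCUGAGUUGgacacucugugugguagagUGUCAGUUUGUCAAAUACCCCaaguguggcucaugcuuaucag
The hairpin of miR-142 follows, with miR-142-5p and then miR-142-3p in capitals.
Mir142 (GRCr8, chr10:73055104-73055190, plus strand): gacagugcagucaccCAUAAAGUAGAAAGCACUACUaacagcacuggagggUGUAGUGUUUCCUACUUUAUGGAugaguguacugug

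**Figure D4:**
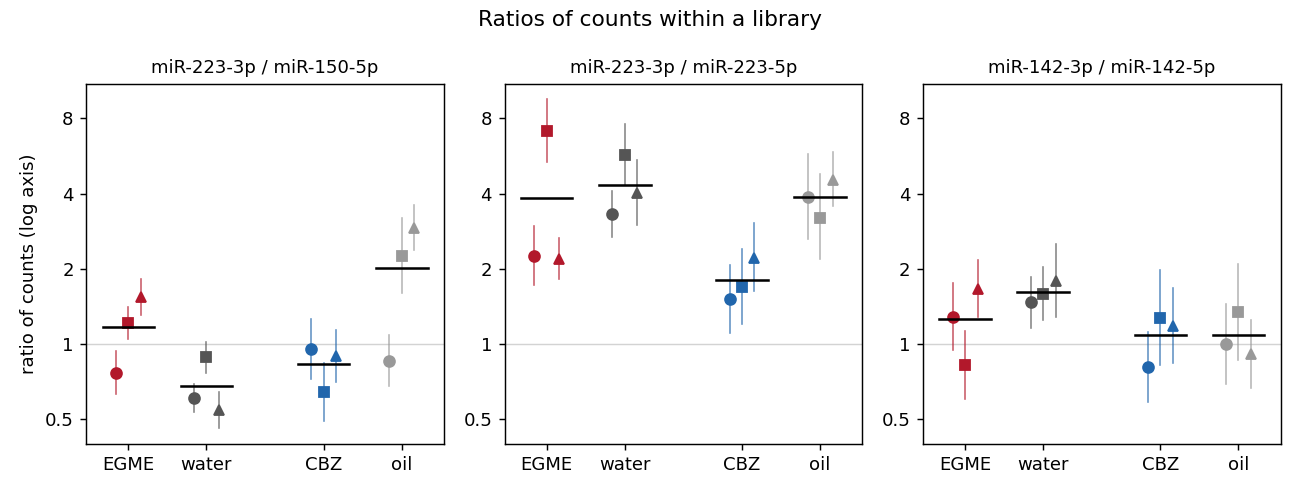
Ratios of counts within each library (vertical axes, log scale) for miR-223-3p over miR-150-5p, miR-223-3p over miR-223-5p and miR-142-3p over miR-142-5p in the EGME, water, CBZ and oil groups; circles, squares and triangles are libraries 1, 2 and 3, thin lines exact 95% intervals (counting error only) and black bars means. The arms of miR-223 stand at 1.51 to 2.21 with CBZ, below 3.19 to 4.54 with oil, while the other ratios shown overlap between each toxicant and its vehicle. Of the ratios not shown, those of miR-223-3p to miR-142-3p and of miR-150-5p to miR-150-3p were also lower in every CBZ library than in every oil library.

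Close relatives and other immune miRNAs were taken from a list of 13, of which 12 were listed in each table. Among miRNAs alone 5 were tested for each toxicant. In both comparisons edgeR called 0 of them, with 0 at an unadjusted p under 0.05, and the Wald test of DESeq2 called 0. The median log2 difference was 0.12 for EGME and 0.09 for CBZ. The seed relative miR-181b-5p, whose genes lie within 1 kb of those of miR-181a, differed by -0.51 for EGME (SE 0.306, edgeR adjusted p = 0.297), next to -0.66 for miR-181a-5p. From another gene, miR-181d-5p differed by 0.11 for EGME (SE 0.256, adjusted p = 0.816). The miRNAs miR-146a-5p and miR-146b-5p, which restrain inflammatory signalling, differed by 0.16 and 0.12 for EGME, and by 0.35 and 0.47 for CBZ, all among miRNAs alone and with edgeR adjusted p from 0.219 to 0.780. Of these miR-146b-5p had 3923, 4408 and 4342 CPM with CBZ, against 3650, 1983 and 2210 CPM with oil, so every CBZ library was above every oil library, as for 17.4% of the 115 miRNAs tested. The intervals of CBZ library 1 (3547 to 4327 CPM) and oil library 1 (3175 to 4177 CPM) overlapped. The inflammation-induced miR-155-5p was near the limit of detection, with at most 10 reads in a library.

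Markers of the other blood sources moved as follows, and their part in the results of the members was not tested. The 7 listed red blood cell miRNAs summed to 8.13% to 11.2% of the miRNA counts with EGME and 6.53% to 9.33% with water, and to 6.37% to 7.81% with CBZ and 6.88% to 12.1% with oil. For EGME edgeR called 0 of the 7 among miRNAs alone (1 at an unadjusted p under 0.05), and so did the Wald test of DESeq2. In that edgeR fit 6 of the 7 were below 0, against 53.9% of the 141 miRNAs. Only miR-486 was above 0, at 0.53 (SE 0.212, edgeR adjusted p = 0.0931). It made up most of the sum, with means of 86658 CPM with EGME and 62669 CPM with water. For CBZ 2 of the 7 fell among miRNAs alone, where 11.3% of 115 miRNAs passed, the erythrocyte miR-451-5p (-0.92, edgeR adjusted p = 0.00397) and miR-185-5p (-1.03, adjusted p = 0.00397). The Wald test of DESeq2 called 3 of the 7, beside 19 of all 115. Of the 7, 7 were below 0, against 47.8% of the 115 miRNAs. Neither call held without scaling (edgeR adjusted p = 0.250 for miR-451-5p and 0.142 for miR-185-5p), without CBZ library 1 (0.0986 and 0.0591) or without CBZ library 2 (0.12 for each), and that of miR-185-5p was also lost without CBZ library 3 (0.0525). Without CBZ library 1 and without CBZ library 2, 0 of 113 and 0 of 121 miRNAs passed. The 9 listed platelet miRNAs summed to 3.75% to 4.84% with EGME and 3.74% to 4.24% with water, and to 6.52% to 7.74% with CBZ and 4.41% to 6.22% with oil. Every CBZ library was above every oil library in this sum. Its largest parts by mean CPM were miR-191a-5p (28125 with CBZ, 18773 with oil) and miR-21-5p (21062 and 20172). Each of these 2 overlapped between CBZ and oil. Of the 9 platelet miRNAs, miR-151-5p and miR-130a-3p had at most 6 reads in any library and were at 0 in some of the EGME libraries. Among miRNAs alone edgeR called 2 of the 7 tested, both higher with CBZ, again beside 11.3% of all 115. In that fit 5 of the 7 were above 0. The other 2, miR-151-3p (-0.47) and miR-21-5p (-0.24), were below 0, as were 47.8% of the 115 miRNAs. The Wald test of DESeq2 also called 2 of the 7, beside 19 of all 115. The 2 that edgeR called were miR-24-3p, higher by 0.70 (edgeR adjusted p = 0.0299), and miR-126a-3p, higher by 0.71 (edgeR adjusted p = 0.0360). Neither passed with upper quartile scaling, without scaling or without the filter (edgeR adjusted p from 0.0988 to 0.32), each was lost in 5 of 6 fits with 1 library left out (held without oil library 3 for miR-24-3p and without oil library 2 for miR-126a-3p), and miR-24-3p was also lost with DESeq2 size factors (0.0608). For EGME 0 of 7 platelet miRNAs passed among miRNAs alone with either tool (2 at an unadjusted p under 0.05 in each). Of these 7, 2 lay higher in every EGME library than in every water library, miR-126a-3p and miR-191a-5p, where 9.93% of the 141 miRNAs tested did. The liver miRNA miR-122-5p made up 0.298% to 0.682% with EGME and 0.164% to 0.522% with water, and 0.377% to 1.05% with CBZ and 0.114% to 0.302% with oil. For CBZ its values did not overlap, and every CBZ library was higher, as for 17.4% of the 115 miRNAs tested. Its log2 difference was 1.53 among miRNAs alone (SE 0.536, edgeR adjusted p = 0.138). The Wald test of DESeq2 called it there, among 19 of the 115. For EGME the groups overlapped and the difference was 0.83 (SE 0.50, edgeR adjusted p = 0.359).

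The miRNAs whose profile lay nearest to each member were sought among 107 other mature miRNAs with a mean of at least 10 counts in each table. Likeness was the root mean square difference of log2(CPM + 1) over the 12 libraries, after subtracting the mean of each miRNA within each table. The nearest to miR-150-5p was miR-181a-5p (0.263, against a median of 0.584 over its candidates), followed by miR-30a-5p (0.363) and miR-652-3p (0.390). Conversely miR-150-5p lay next after miR-378a-3p (0.263) from miR-181a-5p (0.263), before miR-30c-5p (0.279). Nearest to miR-223-3p were let-7g-5p (0.278, against a median of 0.641), miR-148b-3p (0.301) and miR-363-3p (0.343), a miRNA of the red blood cell list. The distance of miR-223-3p from the other members was 0.432 to 0.706. For miR-142-3p the nearest were miR-103-3p (0.177), miR-101b-3p (0.220) and miR-21-5p (0.239), for miR-142-5p let-7f-5p (0.199), miR-20a-5p (0.218) and let-7i-5p (0.242), and for miR-342-3p miR-872-5p (0.345), miR-378a-3p (0.388) and miR-532-5p (0.391). These are descriptions over libraries that share a total, and a miRNA that varies little lies near all others that vary little. They draw on the same values as the comparisons above. Among these is oil library 1, which was high for both miR-150-5p and miR-181a-5p.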

How the data were processed

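Small RNA sequencing of 12 libraries was used as raw counts and normalized values. The authors deposited whole-number counts of reads per feature, 1 table per toxicant with its vehicle. They also deposited tables of normalized signal for 442 and 366 features, in which each value is the raw count times 1 constant per library. The submitters' processing notes name edgeR, with no version. The aligner, the build and the handling of reads that match several genes were not stated in these sources. Libraries were grouped by title.

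Counts were tested with edgeR 4.0.16 in R 4.3.3 (scaled by TMM, low counts removed by filterByExpr at a minimum of 10, robust quasi-likelihood F test, two-sided, Benjamini-Hochberg over all features tested, threshold 0.05). Each toxicant was set against its vehicle, and the difference of effects was tested over features named in both tables. Each SE is the size of the log2 difference divided by the square root of F. Levels are CPM of mature miRNA counts. The alternatives were mature miRNAs alone, DESeq2 1.42.0, limma 3.58.1 on log2 of the deposited normalized values plus 1 or 5, other scalings, no filter, a block for the replicate number, all 12 libraries in 1 fit, and each library left out. The code was tested on simulated data. No pair of libraries of a group agreed within counting noise (chi-square per degree of freedom at least 29.2). Reads carry no molecular identifiers, and the intervals and the floor hold only counting error. The members and lists were chosen with earlier results of these data known. All 6 members are named whatever their values, and so are the 3 miRNAs of nearest profile. Any listed miRNA of the related list may be named.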

Additional observations from a re-analysis of the deposited data

How the results depend on the processing

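Over all RNA classes with TMM scaling edgeR called 0 members in each comparison. For EGME it was 1 (miR-150-5p) among mature miRNAs alone, and 1 there with upper quartile scaling, no scaling, no filter, the Wald test of DESeq2 and the replicate block. In that order these fits called 13, 12 and 8 of 141 miRNAs, 10 of 411 without the filter, and 14 and 17 of 141. For CBZ it was 1 (miR-223-3p) with the Wald test over all classes, and 1 among mature miRNAs alone with TMM, DESeq2 size factors, upper quartile scaling, no filter, the Wald test and the replicate block. The Wald test over all classes called 24 of 244 features. The miRNA fits called, in that order, 13, 12 and 14 of 115, 14 of 343 without the filter, and 19 and 13 of 115. Leaving out each library in turn gave 0 to 1 members in each of the 3 comparisons. Those fits called 0 to 60 features over all classes and 3 to 19 miRNAs for EGME. For CBZ they called 0 to 26 features and 0 to 19 miRNAs, and for the difference of effects 0 to 57 and 0 to 7. Of 530 log2 differences under other processing, 69 turned sign, and 0 of those were called. The cause of these turns was not tested.

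For miR-223-3p and EGME the value was 0.10, and it turned to -0.032 without scaling. Among miRNAs alone it was -0.086, and there -0.031 with size factors, -0.073 with upper quartile scaling, -0.15 without scaling, -0.17 without the filter, -0.031 with the Wald test and -0.12 with the block. With each library left out it ran from -0.33 to 0.41. For miR-142-5p and EGME, 0.038 turned to -0.039 without scaling and -0.015 without the filter. Among miRNAs alone it was -0.16, and in the same order of settings -0.11, -0.17, -0.21, -0.24, -0.11 and -0.12. Left-out libraries gave -0.41 to 0.37. For miR-142-3p and EGME upper quartile scaling gave 0.018. For miR-150-5p and CBZ, -0.018 turned to 0.17 without scaling, 0.017 without the filter, 0.024 with the block, 0.000138 with all 12 libraries in 1 fit and 0.10 among miRNAs without scaling, and left-out libraries gave -0.29 to 0.32. For miR-181a-5p and CBZ, among miRNAs alone, upper quartile scaling gave -0.26 and no filter -0.0024, and left-out libraries gave -0.092 to 0.37. In the difference of effects miR-142-3p turned to -0.11 without scaling and -0.26 without the filter. Among miRNAs alone it was -0.15, and in the same order -0.072, -0.15, -0.41, -0.11, -0.073 and -0.15, with -0.43 to 0.36 for left-out libraries. There miR-142-5p turned to -0.067 among miRNAs without scaling, with -0.087 to 0.63 for left-out libraries.

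The median over all features was -0.02 for EGME, against 0.31 with upper quartile scaling. For CBZ it was 0.12, against 0.32 without scaling, and for the difference of effects 0.24, against 0.55 and -0.17 with these. Among miRNAs alone the CBZ median was 0.03, against -0.35 with upper quartile scaling and 0.24 without scaling. The values of miR-223-3p in these 3 fits were -1.18, -1.55 and -0.87, below the median in each. With the replicate number as a block edgeR called 33 features for EGME and 0 for CBZ, and 17 and 13 among miRNAs alone. Over all features same-numbered libraries deviated together by r of -0.128 to 0.462 for EGME and water, and -0.225 to 0.313 for CBZ and oil. Differently numbered ones had r of -0.541 to 0.209 and -0.247 to 0.241. These ranges overlap and do not settle whether the numbers pair libraries. The titles do not say so, and the main fits took no pairs. The block gave miR-150-5p -0.89 for EGME (edgeR adjusted p = 0.00726) and miR-223-3p -1.15 for CBZ (edgeR adjusted p = 0.00102) among miRNAs alone. Under the block the CBZ calls of the platelet miRNAs miR-24-3p and miR-126a-3p were lost (edgeR adjusted p = 0.0522 for each). Depth limits miR-342-3p most: for CBZ it was tested in 11 ways, with values of 0.31 to 0.80 and 0 calls.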
